A study of Mus musculus with 12 samples.

Results

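Pou2f3, Gfi1b, Hmx2, Hmx3 and Spib encode transcription factors of the tuft lineage, and they are 5 of the 55414 genes in the count table. They were selected by symbol after a review of these same counts, without a record of which comparison led to the choice. Their levels, fold changes and calls in every comparison are therefore given as a description and without p-values. All 5 were found in the table and all 5 passed the filter on low counts, which kept 13057 genes. Gfi1b and Hmx3 could pass only through the groups in which they are high, since both were at 0 counts in every WT non-Paneth library.

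Tuft cells are rare chemosensory cells of the gut epithelium that carry taste-type signalling proteins, make leukotrienes, prostaglandins and acetylcholine, and release IL-25 when worms or protists are sensed. POU2F3, a POU domain factor that binds octamer motifs, is the master regulator of the lineage, and mice without it lack tuft cells. GFI1B is a zinc-finger repressor best known from red cell and platelet development, HMX2 and HMX3 are homeobox factors encoded by neighbouring genes and known from the inner ear and hypothalamus, and SPIB is an ETS factor also used by B cells, plasmacytoid dendritic cells and M cells. Transcripts of all of them have been used to mark tuft cells in the intestine.

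Bulk RNA-seq was done on epithelial cells that had been sorted from crypts of the small intestine. The mice were of the C57BL/6J strain and aged 8 to 12 weeks, and no treatment is named in the labels. There were 4 groups of 3 libraries, namely Paneth (PC) and non-Paneth (nonPC) cells from wild-type mice (WT) and from GRKO mice, in which the glucocorticoid receptor gene Nr3c1 is deleted in villin-expressing epithelium. Paneth cells were gated as CD24+ cKIT+ cells of medium to high side scatter negative for CD31, CD45 and TER119. Neither the labels nor the methods give the gate for non-Paneth cells. A villin-driven deletion acts in every epithelial lineage of the crypt, so neither fraction is a deletion in 1 cell type, and no label says whether a library came from 1 mouse or from a pool. The genotypes were read from the sample titles, because the genotype field names all Paneth libraries WT and all non-Paneth libraries GRKO.

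Libraries held 11126297 to 15910292 counts. Levels below are CPM, that is counts scaled to an equal library size, after TMM scaling, which divides out differences in composition. The TMM factors lay between 0.656 and 0.826 in the Paneth and between 1.197 and 1.5 in the non-Paneth libraries. Nr3c1 had 110 to 131 CPM in WT non-Paneth and 40.9 to 54.1 CPM in WT Paneth cells, against 13.1 to 24.5 and 5.82 to 15.4 CPM in the GRKO libraries (adjusted p = 6.66e-05 in non-Paneth and 0.0331 in Paneth cells, edgeR quasi-likelihood test, n = 3 against 3). Both WT libraries of number 2 carried Xist, at 193 and 215 CPM, and the other 10 held at most 0.428 CPM, so the mice were not all of 1 sex. WT non-Paneth library 2 also held the most Paneth cell transcripts of its group, with 1126 CPM over 7 markers against 362 and 371 CPM. The counts of libraries of 1 group differed by a chi-square of 12.3 to 47.1 per degree of freedom, so no library was a repeat of another.

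In the GRCm39 assembly with the GENCODE vM39 annotation, Pou2f3 (ENSMUSG00000032015) lies on chr9:43035228-43121666 on the minus strand, with 3201 exonic bases. Gfi1b (ENSMUSG00000026815) lies on chr2:28499462-28511994 on the minus strand, with 1830 exonic bases, 55 of which overlap the lncRNA Gm75560 on the opposite strand. Spib (ENSMUSG00000008193) lies on chr7:44175417-44181495 on the minus strand, with 2868 exonic bases. Hmx3 (ENSMUSG00000040148, chr7:131144596-131146654, plus strand, 1457 exonic bases) and Hmx2 (ENSMUSG00000050100, chr7:131150502-131159744, plus strand, 3217 exonic bases) stand 3847 bases apart in the same direction. Both fall within the span of Fgfr2 on the opposite strand and share no exonic base with it. The libraries were made with a kit that keeps the strand, but which strand was counted is not stated in the methods or labels.

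The upstream sequences are shown because these genes moved together over the 12 libraries, and capitals mark CpG dinucleotides. They are the 250 bases before the RefSeq transcription start in the GRCm38.p6 assembly, 5′ to 3′ on the strand of the gene, and the RefSeq table held them for 4 of the 5 genes, with 2 starts for Hmx2 and no entry for Pou2f3.
Gfi1b, chr2:28621983-28622232 (minus strand): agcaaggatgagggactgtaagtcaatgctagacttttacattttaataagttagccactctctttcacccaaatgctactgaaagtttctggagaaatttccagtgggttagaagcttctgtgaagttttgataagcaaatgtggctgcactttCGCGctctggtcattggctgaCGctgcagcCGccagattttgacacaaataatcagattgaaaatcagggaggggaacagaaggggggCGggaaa
Hmx2, upstream start, chr7:131548507-131548756 (plus strand): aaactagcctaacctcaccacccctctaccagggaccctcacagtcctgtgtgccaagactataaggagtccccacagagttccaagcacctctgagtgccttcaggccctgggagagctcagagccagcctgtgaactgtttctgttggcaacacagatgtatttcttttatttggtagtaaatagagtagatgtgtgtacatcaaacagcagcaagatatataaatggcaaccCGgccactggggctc
Hmx2, downstream start, chr7:131554043-131554292 (plus strand): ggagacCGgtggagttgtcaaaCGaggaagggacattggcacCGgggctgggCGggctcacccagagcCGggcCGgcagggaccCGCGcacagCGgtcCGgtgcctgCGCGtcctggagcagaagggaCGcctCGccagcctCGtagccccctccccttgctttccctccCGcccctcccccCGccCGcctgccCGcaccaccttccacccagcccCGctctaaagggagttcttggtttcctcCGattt
Hmx3, chr7:131542713-131542962 (plus strand): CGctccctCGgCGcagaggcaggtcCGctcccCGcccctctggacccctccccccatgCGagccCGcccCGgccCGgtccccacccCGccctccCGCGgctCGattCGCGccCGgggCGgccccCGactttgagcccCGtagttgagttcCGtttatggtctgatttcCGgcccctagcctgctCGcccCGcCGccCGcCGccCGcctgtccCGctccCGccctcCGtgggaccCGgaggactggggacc
Spib, chr7:44532072-44532321 (minus strand): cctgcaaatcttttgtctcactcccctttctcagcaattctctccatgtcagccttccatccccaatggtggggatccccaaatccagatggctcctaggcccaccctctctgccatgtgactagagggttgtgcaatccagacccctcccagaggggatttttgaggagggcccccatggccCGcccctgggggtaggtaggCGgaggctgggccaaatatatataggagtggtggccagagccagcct

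The 5 sequences did not share a CpG content. The upstream sequence of Hmx3 held 31 CpG and that of the downstream start of Hmx2 held 21, numbers reached by 5.19% and 16.3% of the 32851 mouse promoters in the table. The upstream start of Hmx2 held 1, Spib held 2 and Gfi1b held 5, against a median of 6 over all promoters. In the windows of 250 bases before and 50 after the start, both strands were searched for the octamer ATGCAAAT that POU2 factors bind, for AATCACNGC of GFI1 and GFI1B, and for GAGGAAGT of SPI1 and SPIB. None of these letters was found in the promoters of the 4 members with an entry. The octamer was in 1.74%, the GFI motif in 0.919% and the ETS motif in 3.2% of all promoters of the same length. Of 35 tuft effector genes, a list of signalling, lipid mediator and structural genes described below, 30 had a promoter in the table. The octamer stood in 3 of these 30 (10%), the GFI motif in Avil alone, and the ETS motif in Bcl2l14, Cd300lf, Hpgds, Ptgs1 and Vav1. These are counts of genes over all of their starts, whereas the shares above are of single promoters, so the 2 are not directly comparable. The 3 octamer sites are shown with 10 bases on each side (GRCm38.p6, capitals mark the octamer). They begin 174, 160 and 48 bases before the start of Hpgds, Kctd12 and Sucnr1, which encode a prostaglandin D synthase, an auxiliary subunit of GABA-B receptors and the succinate receptor.
Hpgds, chr6:65144887-65144914 (minus strand): tttactctttATGCAAATacgttggact
Kctd12, chr14:102982780-102982807 (minus strand): agcgtttagcATGCAAATgcattccccg
Sucnr1, chr3:60081811-60081838 (plus strand): gctgcataatATGCAAATcagactgcac

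Pou2f3 had 1, 8 and 7 counts in the WT non-Paneth libraries 1 to 3, which is 0.0637, 0.465 and 0.374 CPM. In WT Paneth cells it had 12.3, 18.8 and 27.0 CPM. In GRKO non-Paneth cells it had 10.3, 15.5 and 5.82 CPM, and in GRKO Paneth cells 55.4, 68.3 and 27.5 CPM. The WT non-Paneth libraries thus stood below all others, the WT Paneth and GRKO non-Paneth libraries overlapped, and every GRKO Paneth library stood above every library of the other 3 groups.

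Spib was the most abundant member. It had 3, 32 and 7 counts in WT non-Paneth cells, or 0.191, 1.86 and 0.374 CPM, with the highest value in library 2. It had 18.8, 41.2 and 54.7 CPM in WT Paneth cells. The GRKO non-Paneth libraries had 23.3, 36.5 and 9.14 CPM and the GRKO Paneth libraries 106, 148 and 51.1 CPM. Library 3 of GRKO Paneth cells lay within the range of WT Paneth cells, and the other 2 lay above it.

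Hmx2 and Hmx3, the neighbouring homeobox genes, had similar counts but unequal lengths. Hmx2 had 0, 2 and 0 counts in WT non-Paneth cells. It had 4.28, 4.58 and 7.10 CPM in WT Paneth, 2.005, 4.49 and 0.949 CPM in GRKO non-Paneth, and 11.9, 16.3 and 5.02 CPM in GRKO Paneth cells. Hmx3 had 0 counts in all 3 WT non-Paneth libraries. It had 1.996, 4.95 and 6.63 CPM in WT Paneth, 2.42, 4.49 and 1.38 CPM in GRKO non-Paneth, and 12.2, 16.1 and 6.72 CPM in GRKO Paneth cells. For Hmx2, GRKO Paneth library 3 fell among the WT Paneth libraries, whereas for Hmx3 it stood just above the highest of them.

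Gfi1b was the member with the fewest counts. It also had 0 counts in the 3 WT non-Paneth libraries, and the floor of 3 counts over that group stands for 0.0581 CPM. It had 1.71, 1.36 and 2.49 CPM in WT Paneth cells, 1.07, 2.35 and 0.690 CPM in GRKO non-Paneth cells, and 7.13, 10.4 and 3.12 CPM in GRKO Paneth cells. The GRKO Paneth libraries were all above the WT Paneth libraries, and the latter overlapped with GRKO non-Paneth cells. These floors, and the counting intervals below, cover counting error only.

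**Figure D1:**
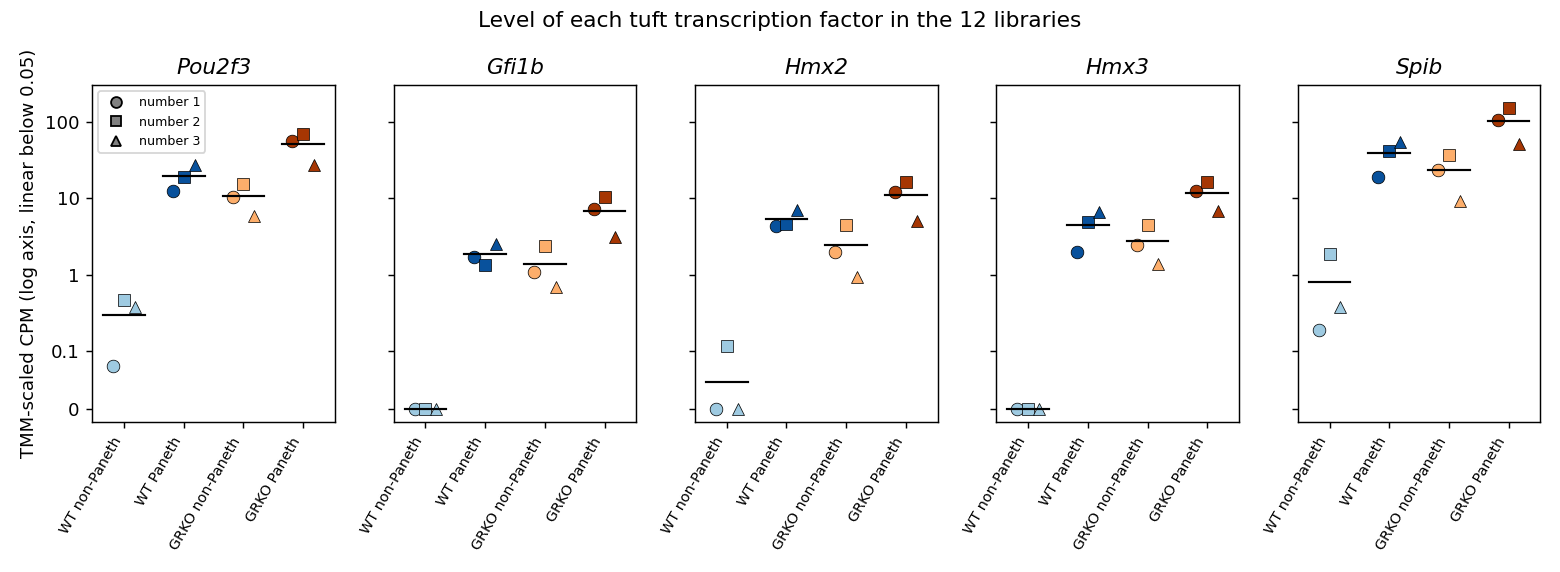
TMM-scaled CPM of each factor (vertical axis, logarithmic above 0.05 CPM and linear below) in the 4 groups of 3 libraries, with a symbol for each library number and a bar at the group mean. WT non-Paneth libraries sit at 0 to 1.86 CPM, WT Paneth and GRKO non-Paneth libraries overlap, and GRKO Paneth libraries have the highest means.

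Per kilobase of exon, the only scale on which levels of different genes are compared here, the order was led by Spib in every group. WT Paneth cells had 13.3 ± 6.32 CPM per kilobase of Spib (SD, n = 3), 6.06 ± 2.29 of Pou2f3, 3.11 ± 1.61 of Hmx3, 1.65 ± 0.482 of Hmx2 and 1.01 ± 0.315 of Gfi1b. GRKO Paneth cells had 35.5 ± 16.9 CPM per kilobase of Spib, 15.7 ± 6.52 of Pou2f3, 8.02 ± 3.25 of Hmx3, 3.76 ± 1.99 of Gfi1b and 3.44 ± 1.77 of Hmx2. In GRKO non-Paneth cells the levels per kilobase were 8.01 ± 4.76 for Spib, 3.29 ± 1.52 for Pou2f3, 1.90 ± 1.09 for Hmx3, 0.771 ± 0.565 for Hmx2 and 0.749 ± 0.475 for Gfi1b. In each of these groups the ranges of neighbours in the order overlapped between libraries. Within a library, however, Spib stood above Pou2f3 and Pou2f3 above Hmx3 in all 3 libraries of each of these groups, and only the last positions, of Hmx2 and Gfi1b, changed places between groups.

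WT Paneth cells were compared with WT non-Paneth cells to see which sorted fraction had the higher levels of these transcripts. All 5 were higher in the Paneth fraction and past the threshold of 5% on the false discovery rate, where 24% of the 13057 genes tested were called higher and 26.7% lower. The WT Paneth libraries were all above the WT non-Paneth libraries for 5 of 5 members, against 27.6% of all genes tested. Pou2f3 was 60.8-fold higher (log2 fold change 5.93, SE 0.70) and Spib 46.3-fold (log2 5.53, SE 0.92). With 142 counts against 2, the ratio of Hmx2 was 135, with a 95% exact binomial counting interval of 36.8 to 1129. Hmx3 was at least 74.4-fold higher, from 117 counts against 0 and the floor of 3 counts over the WT non-Paneth group, and Gfi1b at least 31.8-fold, from 50 counts. The median log2 fold change of the 5 was 5.93 with these bounds, and 6.81 with the fitted values, against 0.01 over all genes tested. In bulk libraries, fewer cells of a type and less RNA per cell cannot be told apart.

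The tuft effector genes moved in the same direction. Their list was also chosen with earlier results of these data known. Their calls and adjusted p-values are thus a description and no independent test of the members' pattern. The list holds 35 genes, of which 32 passed the filter, and 30 were called higher in WT Paneth cells, with a median log2 fold change of 5.56. Dclk1, a kinase-like protein that marks tuft cells, rose from 0.446, 3.02 and 0.642 CPM to 34.6, 98.9 and 137 CPM (log2 6.02, SE 0.98, adjusted p = 0.000882, edgeR). Trpm5, the cation channel of the taste cascade, rose from 1.59, 3.20 and 4.06 to 72.2, 124 and 153 CPM (log2 5.28, SE 0.69, adjusted p = 0.000212). Il25, the cytokine of the type 2 circuit, had 0 counts in all 3 WT non-Paneth libraries and 6, 5 and 7 counts in WT Paneth cells, and did not pass the filter. Among the called genes with the largest fitted changes was Bmx, a non-receptor tyrosine kinase, with a log2 fold change of 6.85 (SE 1.17, adjusted p = 0.000969). For Ffar3, a receptor for short-chain fatty acids, 149 counts stood against 2, a ratio of 142 (95% counting interval 38.7 to 1184). The 2 genes tested and not called were Ptpn6 and Sucnr1.

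GRKO Paneth cells were compared with GRKO non-Paneth cells, the same contrast within the deletion. All 5 members were again higher in the Paneth fraction and past the threshold, with 17.9% of genes called higher and 21.2% lower. Every GRKO Paneth library was above every GRKO non-Paneth library for 5 of 5 members, against 22.4% of genes. The fold changes fell in a narrow range. Gfi1b was 4.99-fold higher (log2 2.32, SE 0.50), Pou2f3 4.78-fold (log2 2.26, SE 0.45), Hmx2 4.44-fold (log2 2.15, SE 0.54), Spib 4.43-fold (log2 2.15, SE 0.66) and Hmx3 4.21-fold (log2 2.08, SE 0.51). The median was 2.15, against -0.08 over all genes.

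These calls depended on the scaling and on single libraries for Spib and, for scaling, for Hmx2. With library totals in place of TMM factors, the all-gene median log2 fold change moved to -1.05 in this contrast, and Spib (log2 1.17) and Hmx2 (log2 1.18) were no longer called, so that 3 of 5 members were. Relative to the median of all genes, Spib stood at 2.23 with both scalings and Hmx2 at 2.23 with both. Spib also lost the call without GRKO non-Paneth library 1 (log2 2.24) or 3 (log2 1.85), without GRKO Paneth library 1 (log2 2.11) or 2 (log2 1.77), and with only these 2 groups in the fit (log2 2.24).

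The ratio between the fractions was also formed for libraries of the same number, although equal numbers are not known to mark the same mouse. The GRKO Paneth level of Pou2f3 over the GRKO non-Paneth level was 5.40, 4.398 and 4.72 for numbers 1 to 3. The ratio for Spib was 4.54, 4.06 and 5.59, and for Gfi1b it was 6.65, 4.43 and 4.53. Hmx2 had ratios of 5.91, 3.635 and 5.29, and Hmx3 of 5.04, 3.596 and 4.87. In WT the ratio could be formed for every number only for Pou2f3, with 194, 40.4 and 72.1, and for Spib, with 98.5, 22.15 and 146, from at most 32 counts in a WT non-Paneth library. The ratios of the members lay between 3.596 and 6.65 in GRKO, and those of Pou2f3 and Spib differed more from number to number in WT.

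Of the tuft effector genes, 31 of 32 tested were called higher in GRKO Paneth than in GRKO non-Paneth cells, with a median log2 fold change of 2.25. Dclk1 had 63.1, 90.7 and 20.9 CPM in GRKO non-Paneth and 247, 382 and 138 CPM in GRKO Paneth cells (log2 2.13, SE 0.74, adjusted p = 0.049). Trpm5 had 54.9, 81.0 and 20.1 against 304, 346 and 138 CPM (log2 2.34, SE 0.57, adjusted p = 0.0107). The largest changes were those of Gnat3, the alpha subunit of gustducin (log2 2.93, SE 0.72, adjusted p = 0.00472), of the kinase gene Matk (log2 2.54, SE 0.55, adjusted p = 0.00485) and of Cd300lf, an immune receptor (log2 2.43, SE 0.48, adjusted p = 0.00126). Sucnr1 was not called. The number called was 10 with library totals, 18 without GRKO non-Paneth library 1 or without GRKO Paneth library 1, and 14 without GRKO Paneth library 2.

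GRKO and WT non-Paneth cells were compared to see how these transcripts stood in the sorted non-Paneth fraction of each genotype. All 5 members were higher in GRKO non-Paneth cells and past the threshold, where 17.5% of genes were called higher and 19.8% lower. Every GRKO library was above every WT library for 5 of 5 members, against 27.8% of all genes. Pou2f3 was 33.2-fold higher (log2 5.05, SE 0.70) and Spib 27.97-fold (log2 4.81, SE 0.91). The ratio of Hmx2 was 64.8, from 172 counts against 2, with a 95% counting interval of 17.7 to 539. Hmx3, with 191 counts against 0, was at least 48.0-fold higher, and Gfi1b, with 95 counts against 0, at least 23.9-fold. The median log2 fold change was 5.05 with the bounds and 5.72 with the fitted values, against 0.02 over all genes tested. The WT non-Paneth group is the reference both here and in the first comparison, so that both rest on the same 3 libraries of low counts.

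Among the tuft effector genes, 24 of 32 rose in GRKO non-Paneth cells and 8 were not called, with a median log2 fold change of 4.603. Dclk1 had a log2 fold change of 5.40 (SE 0.96, adjusted p = 0.00284) and Trpm5 of 4.12 (SE 0.67, adjusted p = 0.00162). Among the largest fitted changes were that of Alox5, the 5-lipoxygenase of leukotriene synthesis, at 6.11 (SE 1.12, adjusted p = 0.00317), and that of Ffar3, for which 242 counts against 2 gave a ratio of 91.2 (95% counting interval 25.0 to 757). Il25 had 3, 11 and 1 counts in GRKO non-Paneth cells and none in WT. Bcl2l14 (log2 -0.13, adjusted p = 0.568), Itpr2 (log2 -0.05, adjusted p = 0.906) and Ptpn6 (log2 0.44, adjusted p = 0.356) were genes of the list with 15.2 to 50.8 CPM in WT non-Paneth cells already, named here after their values were seen.

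**Figure D2:**
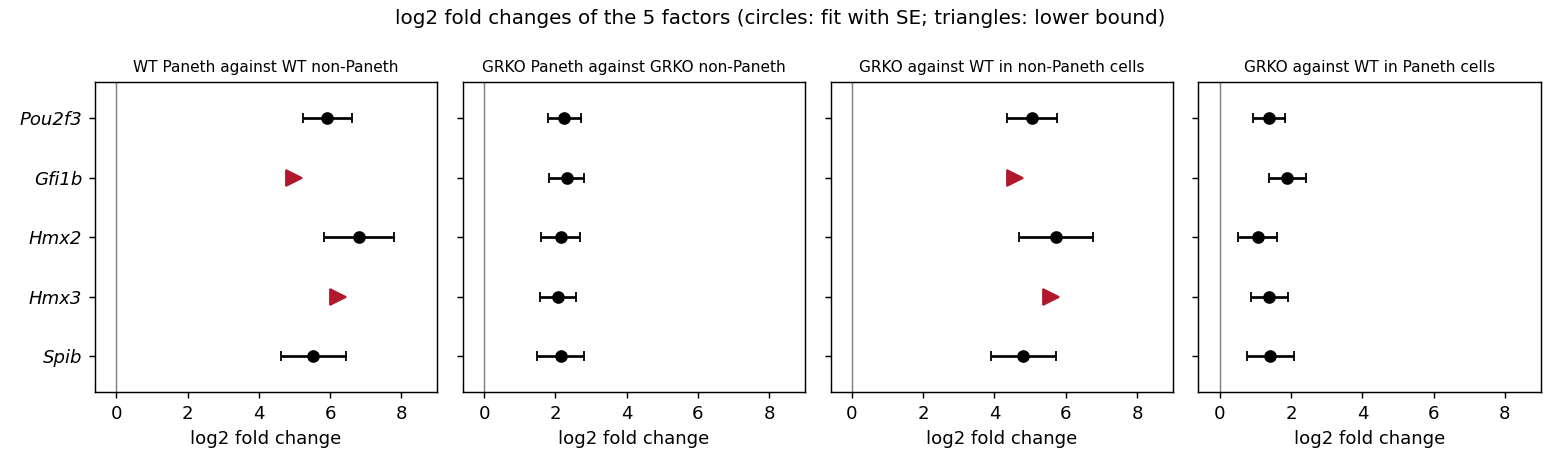
log2 fold change (horizontal axis) of each factor in 4 comparisons of 3 against 3 libraries. Circles are fitted values with their SE and triangles are lower bounds for Gfi1b and Hmx3 against a group with 0 counts. The contrast of the fractions is 5.53 or more in WT for 3 fitted genes and 2.08 to 2.32 in GRKO.

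In Paneth cells, GRKO and WT were compared to see whether the levels differ within the sorted Paneth fraction. None of the 5 members was called by edgeR's quasi-likelihood test, in a comparison in which 1.7% of genes were called higher and 1.52% lower, and in which 3492 genes had an unadjusted p under the same threshold. All 5 fitted values were positive. Gfi1b had a log2 fold change of 1.89 (SE 0.52), Spib of 1.42 (SE 0.65), Hmx3 of 1.39 (SE 0.52), Pou2f3 of 1.38 (SE 0.45) and Hmx2 of 1.06 (SE 0.54). Their median was 1.39, against 0.03 over all genes. For Pou2f3, Gfi1b and Hmx3 every GRKO library was above every WT library, which held for 14.2% of all genes, and for Hmx2 and Spib library 3 of GRKO overlapped with WT. Gfi1b was called by DESeq2 (log2 1.89) and with a replicate block (log2 1.72). That block matched WT and GRKO libraries by number alone, although they come from different mice. All 5 were called when no filter on low counts was used. None of the 32 tuft effector genes was called either, with a median of 1.37. DESeq2, run without that filter, called 5 of the 35 genes on the list. Dclk1 had a log2 fold change of 1.51 (SE 0.73, adjusted p = 0.225) and Trpm5 of 1.17 (SE 0.55, adjusted p = 0.212). The number of all genes called was itself unstable in this comparison, at 420 with all 12 libraries, 1 without WT Paneth library 1 or without GRKO non-Paneth library 2, 0 without GRKO Paneth library 2 and 1619 without GRKO Paneth library 1, and it moved by more than 1.5 times without any library other than WT Paneth library 3.

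The difference between the genotypes in the contrast of the fractions was fitted as 1 term. In this term, 11.5% of genes were called higher and 7.27% lower. Of the members, 4 were called, all with a smaller fraction contrast in GRKO. The log2 difference, GRKO minus WT, was -3.67 (SE 0.88) for Pou2f3 and -4.66 (SE 1.27) for Hmx2. For Hmx3 and Gfi1b, with no counts in WT non-Paneth cells, the fitted differences of -6.97 (SE 1.65) and -5.46 (SE 1.55) depend on how the fit treats 0 counts and bound nothing. Spib was not called, at -3.39 (SE 1.146), but was called with DESeq2 (-3.36), without a filter on low counts (-3.41) and with a replicate block (-3.39), so that these settings called all 5 members. Of the tuft effector genes, 8 of 32 were called, all negative, among them Trpm5 (-2.95, SE 0.85, adjusted p = 0.0425), Plcb2, the phospholipase of the taste cascade (-4.21, SE 1.11, adjusted p = 0.0303), Rgs13, a regulator of G protein signalling (-4.03, SE 1.152, adjusted p = 0.0424), and Pik3r5, a regulatory subunit of phosphoinositide 3-kinase gamma (-3.98, SE 1.10, adjusted p = 0.0376). Genes of other lists were called in either direction. Of 6 enterocyte genes, 2 were called higher and 0 lower, with a median of 1.32. All 5 stem cell genes were called lower, with a median of -0.78, as were 3 of 4 proliferation genes, with a median of -0.79, and 5 of 10 regulators of other secretory lineages, with a median of -0.79.

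The calls of this term depended on single libraries. Without any 1 of the 3 WT non-Paneth libraries, or without WT Paneth library 3, 2 of 5 members were called, Pou2f3 and Hmx3. Gfi1b lost the call without WT Paneth library 1 too. When both WT libraries of number 2 were left out, which was chosen after seeing the data, 0 members were called, with log2 differences of -4.09 for Pou2f3, -5.66 for Gfi1b, -7.27 for Hmx2, -6.93 for Hmx3 and -4.79 for Spib. Hmx2 then had 0 counts in WT non-Paneth cells. Its value, like those of Gfi1b and Hmx3, thus depends on how the fit treats 0 counts and bounds nothing. The tuft effector genes called numbered 1 without WT non-Paneth library 1 or 3, without WT Paneth library 3, or without GRKO non-Paneth library 1 or 2. They numbered 3 without WT non-Paneth library 2, WT Paneth library 2 or GRKO Paneth library 1, 5 without GRKO Paneth library 3 and 16 without GRKO non-Paneth library 3.

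**Figure D3:**
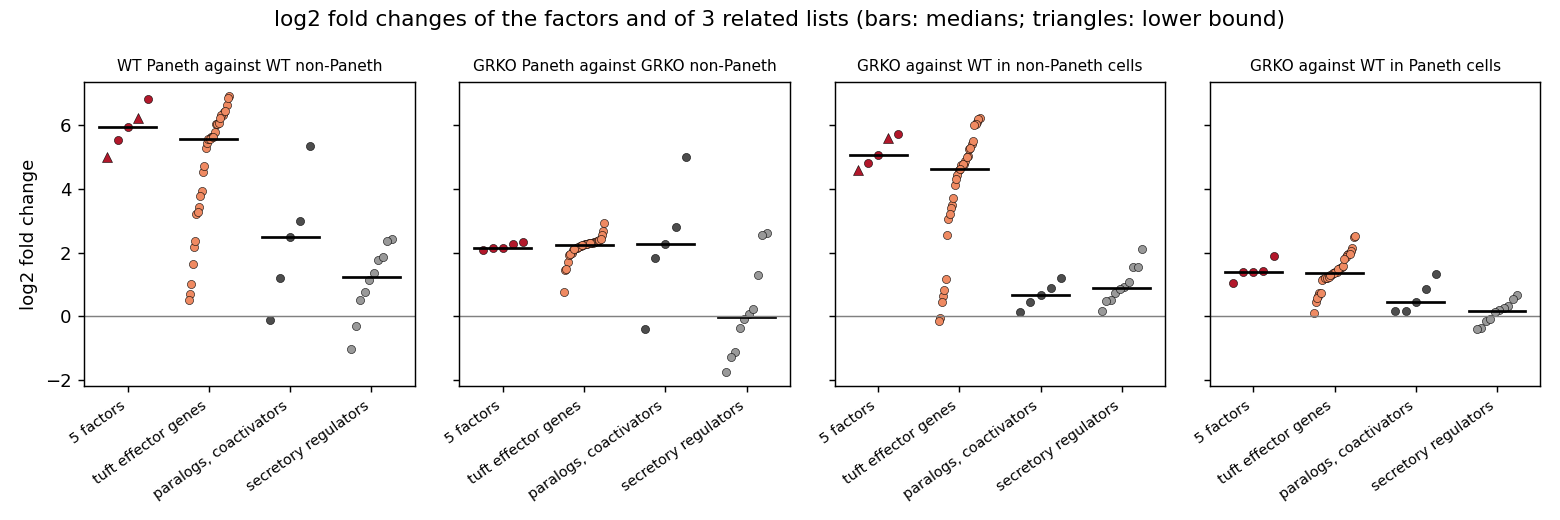
log2 fold changes (vertical axis) of the 5 factors, the 32 tuft effector genes tested, the 5 paralogs and coactivators tested and 10 other secretory regulators in 4 comparisons. Each point is a gene, triangles are lower bounds and bars are medians, and the medians of the factors lie beside those of the tuft effector genes, at 5.93 and 5.56 in the first comparison and at 2.15 and 2.25 in the second.

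Within a group, the libraries ranked alike for the members. In both GRKO fractions, number 2 was the highest and number 3 the lowest library for all 5. The same held for the tuft effector genes above 0 in every library, with number 2 highest for 32 of 33 and number 3 lowest for 33 of 33 in GRKO non-Paneth cells, and with 29 of 35 and 35 of 35 in GRKO Paneth cells. In WT Paneth cells number 3 was highest for all 5 members and for 28 of 32 effector genes. Between the highest and the lowest library of a group, the 5 members differed by 1.66-fold to 3.32-fold in WT Paneth, 2.67-fold to 4.73-fold in GRKO non-Paneth and 2.40-fold to 3.33-fold in GRKO Paneth cells.

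The levels of the members were also set against the tuft effector genes of the same library. Pou2f3 made up 1.99 ± 0.237% (SD, n = 3) of the summed CPM of the 35 effector genes in WT Paneth cells, 1.89 ± 0.335% in GRKO non-Paneth and 2.04 ± 0.114% in GRKO Paneth cells. Spib came to 3.75 ± 0.277%, 3.803 ± 0.328% and 4.03 ± 0.146% in the same order. Hmx3 came to 0.436 ± 0.0619%, 0.478 ± 0.0829% and 0.478 ± 0.0436%, and Gfi1b to 0.206 ± 0.0948%, 0.235 ± 0.0573% and 0.267 ± 0.0247%. Hmx2 had 0.574 ± 0.182% in WT Paneth against 0.3997 ± 0.102% and 0.431 ± 0.0339% in the GRKO fractions. In each of these pairs of groups the ranges overlapped for all 5 members. For Hmx2, the GRKO Paneth share was lower than the WT Paneth share by a log2 difference of -0.37 with the sum, and of -0.68 with the median effector gene as the reference, on which the libraries of the groups no longer overlapped. On the median reference, GRKO non-Paneth cells were also separate from WT Paneth cells, with a log2 difference of -0.63. These differences were not tested.

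In WT non-Paneth cells the shares were lower, at 0.278 ± 0.190% for Pou2f3 and 0.705 ± 0.739% for Spib. There the sum of 96.4 to 120 CPM came in large part from Bcl2l14, which alone had 38.5 to 50.8 CPM, so that the share in this group is not comparable with the others.

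**Figure D4:**
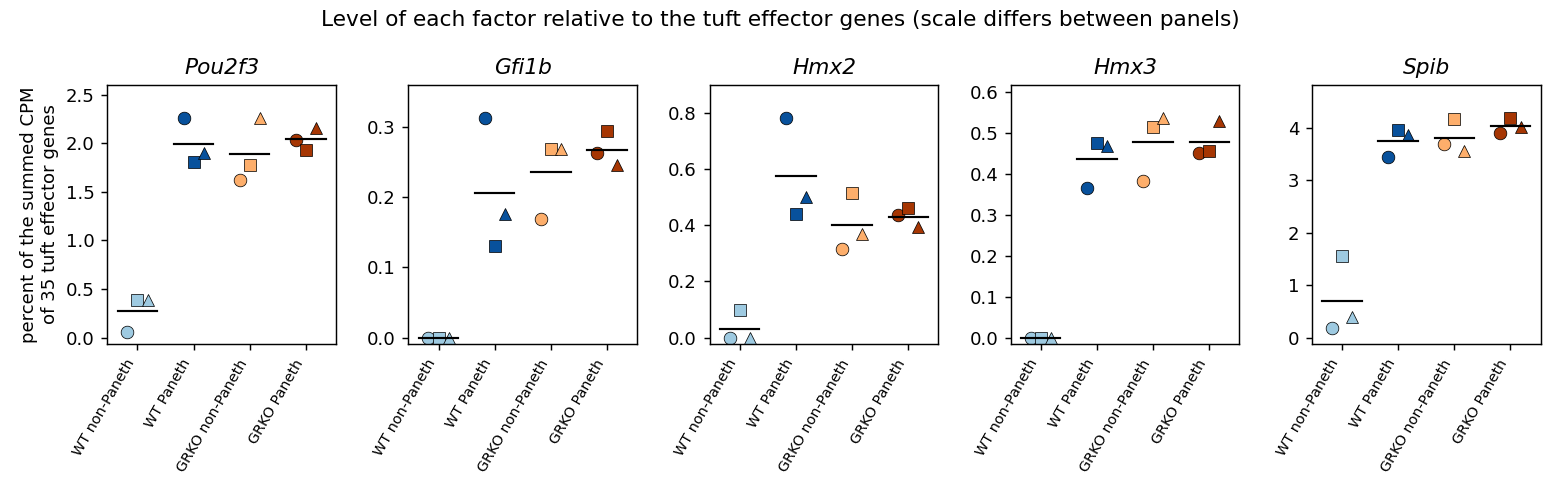
Level of each factor as a percentage of the summed CPM of 35 tuft effector genes (vertical axis, with a scale for each panel) in every library, with bars at the group means. Outside WT non-Paneth cells the groups overlap, for example at 1.62 to 2.26% for Pou2f3 and 3.44 to 4.19% for Spib.

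The genes with the pattern most like that of each member were taken by Pearson's r of log2(CPM + 1) over the 12 libraries, among 11277 other genes with a mean of at least 3 CPM in a group. Because the libraries fall into 4 groups and share their scaling, r is high for any gene with this order of groups and is given as a description only. For Pou2f3 the closest genes were Avil, Hpgds, Plcb2, Irag2 and Trpm5, all 5 on the list of tuft effector genes, with r from 0.995 to 0.996. For Spib they were Dclk1 (r = 0.998), Pik3r5, Avil and Sh2d7, also on the list, and Pygl, a glycogen phosphorylase. Hmx2 was closest to Trib2 (r = 0.991), Mcub, Ptgs1, Limd2 and Vav1. Hmx3 was closest to Siglecf (r = 0.994), Bmx, Mcub, Tmem229a and Fyb1, and Mcub was the gene in both sets. Gfi1b was closest to Cd300lf (r = 0.987), Matk, Col15a1, Dlgap3 and Cacna2d2. Among the members themselves, r was highest between Pou2f3 and Spib, at 0.993, and lowest between Gfi1b and Spib, at 0.927, with 0.978 between the neighbours Hmx2 and Hmx3.

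The paralogs of the members were measured in the same libraries. Pou2f1, which encodes the ubiquitous OCT1, had 13.6, 18.5 and 22.8 CPM in WT non-Paneth, 15.1, 18.1 and 17.4 in WT Paneth, 27.5, 22.5 and 24.3 in GRKO non-Paneth, and 14.8, 19.85 and 22.1 in GRKO Paneth cells, and it was called in none of the comparisons. Gfi1, which encodes a repressor used by Paneth and goblet cells, had 2.89 to 4.01 CPM in WT non-Paneth and 15.9 to 22.9 CPM in WT Paneth cells (log2 2.48, SE 0.31, adjusted p = 1.54e-05). In GRKO it had 2.42 to 5.92 and 18.9 to 30.0 CPM (log2 2.80, SE 0.30, adjusted p = 7.72e-06). Between the genotypes the log2 fold change of Gfi1 was 0.14 (SE 0.32, adjusted p = 0.765) in non-Paneth and 0.45 (SE 0.28, adjusted p = 0.316) in Paneth cells. Pou2f2, Hmx1, Spi1 and Spic, with the B cell and myeloid factors among them, had 0 to 3 counts in every library and did not pass the filter.

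The coactivators of POU2 factors differed from each other. Pou2af1, the B cell coactivator OCA-B, had 0.0535 to 0.116 CPM in WT non-Paneth and 0.0932 to 0.345 CPM in GRKO non-Paneth cells, against 2.09 to 4.62 CPM in WT Paneth and 4.07 to 8.64 CPM in GRKO Paneth cells. It was called higher in the Paneth fraction of WT (log2 5.34, SE 0.60, adjusted p = 2.77e-06) and of GRKO (log2 5.005, SE 0.49, adjusted p = 1.57e-06), and between the genotypes in non-Paneth cells the log2 fold change was 1.202 (SE 0.80, adjusted p = 0.254). Pou2af2 and Pou2af3 encode the coactivators with which POU2F3 works in tuft cells. Pou2af2 had 4.14, 4.13 and 2.62 CPM in WT non-Paneth, 4.28, 7.92 and 12.8 in WT Paneth, 5.83, 8.18 and 3.19 in GRKO non-Paneth, and 20.7, 29.7 and 11.2 in GRKO Paneth cells. It was called in the fraction contrast of GRKO (log2 1.84, SE 0.46, adjusted p = 0.00829) and not in that of WT (log2 1.19, SE 0.50, adjusted p = 0.0674), and the difference between these contrasts was not called (0.65, SE 0.67, adjusted p = 0.54). Its libraries ranked as those of the members did, with GRKO number 2 highest and number 3 lowest in both fractions. Pou2af3 had 2.67 to 3.95 CPM in WT non-Paneth, 22.1 to 26.6 in WT Paneth, 5.48 to 6.42 in GRKO non-Paneth and 27.2 to 29.0 CPM in GRKO Paneth cells. It was higher in both Paneth fractions (log2 2.97, SE 0.17, adjusted p = 4.70e-09 in WT, and log2 2.26, SE 0.16, adjusted p = 4.77e-08 in GRKO) and higher in GRKO than in WT non-Paneth cells (log2 0.89, SE 0.17, adjusted p = 0.000886).

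Regulators of the other secretory lineages were compared by a list of 10 genes that includes Sox9, Spdef and Atoh1. In WT, 7 of 10 were higher and 1 lower in the Paneth fraction, with a median log2 fold change of 1.24. In GRKO, 3 were higher and 2 lower, with a median of -0.005. Between the genotypes 7 of 10 were higher in GRKO non-Paneth cells, with a median of 0.88, and none was called in Paneth cells by edgeR, with a median of 0.18. Atoh1, which commits crypt cells to the secretory fate, had 12.1 to 18.5 CPM in WT and 11.5 to 24.0 CPM in GRKO non-Paneth cells (log2 0.16, adjusted p = 0.708).

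Markers of the other cells that use the members were read in the same libraries. Of 8 M cell genes, Gp2, the M cell receptor, had 1 count in 1 WT non-Paneth library and 0 counts elsewhere. The list summed to 105.2 to 121.3 CPM in WT and to 105.5 to 120.8 CPM in GRKO non-Paneth cells, with 0 of 6 tested genes called between them by edgeR, and to 487 to 844 CPM in the Paneth libraries, where the chemokine gene Ccl9 alone had 385 to 746 CPM. In the contrast of the fractions, in which the members were high, 4 of 6 M cell genes were called higher in Paneth cells and 1 lower in WT, with a median log2 fold change of 1.41, and 4 were higher and 2 lower in GRKO, with a median of 1.43. Of 10 genes of B cells and plasmacytoid dendritic cells, Siglech was at 0 counts in all 4 groups, and Ms4a1 had 0 to 3 counts in every library. That list summed to 158.8 to 204.8 CPM in WT and 162 to 178 CPM in GRKO non-Paneth cells. Irf8, at 103 to 155 CPM in the non-Paneth libraries, made up most of the sum, and Blnk was the 1 gene called between these groups (log2 0.46, adjusted p = 0.0113). Erythroid and megakaryocyte genes, a list of 10 for the cells in which GFI1B is best known, summed to at most 2.10 CPM in any library, and Gata1, Hba-a1, Hbb-bt and Ppbp were at 0 counts in all groups. Mast cell genes summed to at most 1.21 CPM, with Cpa3, Ms4a2 and Gata2 at 0 throughout. The part of these cells in the levels of the members was not tested.

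Ptprc, which encodes the CD45 that was gated out, was not called in any comparison. It had 5, 7 and 3 counts in WT non-Paneth and 71, 145 and 7 counts in GRKO non-Paneth cells (log2 3.43, adjusted p = 0.115), and 3, 33 and 48 counts in WT Paneth against 157, 326 and 22 counts in GRKO Paneth cells (log2 2.35, adjusted p = 0.239). Its highest level in GRKO was in number 2 and its lowest in number 3, in both fractions, as for the members. The 5 immune and endothelial genes found were Ptprc, Pecam1, Cd3e, Cd8a and Lyz2. Of these, only Ptprc and Pecam1 encode proteins named in the Paneth gate. Together the 5 genes summed to 0.749 to 1.75 CPM in WT non-Paneth and 14.3 to 16.6 in WT Paneth cells. In GRKO they summed to 0.647 to 6.59 CPM in non-Paneth and 10.3 to 35.7 CPM in Paneth cells. Lyz2, a lysozyme gene read here as a myeloid marker, made up most of the sum in WT Paneth cells, with 144, 92 and 82 counts. Whether these counts came from myeloid cells was not tested. Of these 5 genes, 2 were tested. Lyz2 was called higher in the Paneth fraction of WT (log2 5.99) and of GRKO (log2 7.28). Ptprc had log2 fold changes of 3.44 and 2.36 in these 2 contrasts and was not called. Cd3e and Cd8a of T cells were at 0 counts in GRKO Paneth cells, and Pecam1 of endothelium had at most 10 counts in any library. The part of CD45-positive cells in the levels of the members was not tested.

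Paneth cell genes were read as well, since the members were high in the Paneth fraction. Of 7 Paneth cell genes 1, Ang4, was called higher in GRKO than in WT non-Paneth cells (log2 2.35, adjusted p = 0.00355), the median log2 fold change was 0.10, and the list summed to 362 to 1126 CPM in WT and 592 to 1128 CPM in GRKO non-Paneth cells, against 432624 to 673423 CPM in the Paneth libraries. Other lists did move in GRKO non-Paneth cells. Of 6 enterocyte genes 3 fell, with a median of -2.10 and a sum of 3687 to 4682 CPM against 16967 to 19228 CPM in WT. All 4 proliferation genes and 3 of 5 stem cell genes rose, with medians of 0.72 and 0.56. Of 6 goblet cell genes 2 fell, with a median of -0.82, and 0 of 7 enteroendocrine genes were called by edgeR, with a median of 0.37. Genes of other cell types thus also differed between the non-Paneth libraries of the genotypes, and the part of this in the levels of the members was not tested.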

How the data were processed

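RNA-seq counts were read from the deposited table of 12 libraries and 55414 genes. Per the labels and the study's methods, the authors sorted crypt cells, made stranded TruSeq libraries, aligned reads to mm39 with STAR and deposited raw counts per gene from its gene counting. The processing notes name Trimmomatic 0.39, STAR 2.7.10a, FastQC and DESeq2. The labels and the methods name different RNA extraction kits. Gene symbols were matched by identifier for 54749 genes (98.8%), and 665 kept their identifier.

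The members and all gene lists were chosen with earlier results of these data known, so adjusted p-values of list genes are a description too. Libraries were grouped by title. No source says that each number is 1 mouse, and p-values measure the spread between libraries, which may be technical. Genes were filtered with filterByExpr (13057 kept), scaled by TMM and fitted in 1 quasi-likelihood model over the 4 groups with edgeR 4.0.16 in R 4.3.3, with a Benjamini-Hochberg adjusted p under 0.05 as a call. The SE is the absolute log2 fold change divided by the square root of F. Every adjusted p is from this model unless another tool is named. Folds against groups with 0 counts used a floor of 3 counts over the group, and ratios with 1 to 3 counts have exact binomial 95% intervals. Levels per kilobase used the union of exons.

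Named genes were the 5 members, their paralogs and coactivators, Dclk1, Trpm5 and Il25, and in each comparison the 3 called tuft effector genes with the largest fitted changes. Some genes that meet this rule are not reported here. Other names were chosen after their values were seen. Scripts were tested on simulated counts. Alternatives were DESeq2 1.42.0, RLE factors, library totals, TMM without Lyz1 and the Defa genes, no filter, a filter of at least 10 counts in every library of 1 group, a replicate block, the compared groups alone, a false discovery rate of 1% and leaving out each library. For the contrasts of the fractions and their difference, the replicate block was the number within a genotype. Between the genotypes it was the number alone, which matches libraries of different mice.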

Additional observations from a re-analysis of the deposited data

Results flagged for a closer look

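The contrast between Paneth and non-Paneth cells differed between the genotypes, by the term fitted for that difference in edgeR, for 4 members and 5 other named genes. On the log2 scale, as GRKO minus WT, it differed by -3.67 for Pou2f3, -5.46 for Gfi1b, -4.66 for Hmx2 and -6.97 for Hmx3. The members were chosen from these data, so these values are a description. Among tuft effector genes the difference was -2.95 for Trpm5, -4.21 for Plcb2, -4.03 for Rgs13 and -3.98 for Pik3r5. For Pou2af3 it was -0.71. Every 1 of these 9 differences was negative, so the contrast was smaller in GRKO, where the non-Paneth levels of all 9 genes were higher than in WT. For Gfi1b and Hmx3 the size depends on how the model treats 0 counts in WT non-Paneth cells. Of all genes tested, 11.5% were called higher and 7.27% lower in this term. Without 1 library, 2 to 4 members were called, and 0 without both WT libraries of number 2. Genes of other lists were called lower in this term too, with 5 of 5 stem cell genes, 3 of 4 proliferation genes and 5 of 10 regulators of other secretory lineages. Of 6 enterocyte genes, 2 were called higher and 0 lower. No group had more than 3 libraries, so single libraries were not tested as outliers.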

How the results depend on the processing

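No log2 fold change of a member changed sign in 520 refitted values, of which 490 stayed on the same side of the threshold, 20 lost the call and 10 gained it. These values come from 21 alternative fits, each counted once for every member and comparison, so they are not independent. Members called numbered 5 in WT Paneth against non-Paneth and in GRKO against WT non-Paneth cells without any 1 library. In GRKO Paneth against non-Paneth cells, 3 members were called with library totals and 4 to 5 without 1 library, and tuft effector genes numbered 10 with library totals, 19 with only the groups compared, 10 at a false discovery rate of 1% and 14 to 34 without 1 library. In GRKO against WT Paneth cells, members called were 1 with DESeq2, 5 without a filter, 1 with a replicate block and 0 without any 1 library, and tuft effector genes were 5, 28, 3 and 0 to 2. For the difference between the genotypes, members called were 5 with DESeq2, 5 without a filter, 5 with a replicate block, 0 at 1%, 0 without both WT libraries of number 2 and 2 to 4 without 1 library, all lower. Tuft effector genes there were 18 with DESeq2, 15 with library totals, 25 without a filter, 24 with a replicate block, 1 at 1%, 1 without both WT libraries of number 2 and 1 to 16 without 1 library. Of these, 2 were higher without a filter, 2 with the block and 1 of 5 without GRKO Paneth library 3, and all others were lower. The fit of only the groups compared gives no value for this difference. With DESeq2 or without a filter, tuft effector genes are counted over the list of 35, and otherwise over those that passed the filter. The cause of these changes was not tested.

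Of all genes, 10785 in place of 5116 were called in GRKO Paneth against non-Paneth cells with library totals. In GRKO against WT Paneth cells the 420 became 1464 with DESeq2, 2 with library totals, 1780 without a filter, 977 with a replicate block, 0 with only the groups compared, 0 at 1%, 1 without both WT libraries of number 2 and 0 to 1619 without 1 library. At 1%, 3002 in place of 4869 were called in non-Paneth cells and 955 in place of 2445 for the difference, which ranged from 1562 to 2610 without 1 library. With library totals the share of calls that were higher moved from 47.3 to 12.2% in WT, from 45.8 to 7.57% in GRKO, from 46.9 to 74.6% in non-Paneth cells and from 61.2 to 29.0% for the difference, as the median of all genes moved to -0.68, -1.05, 0.31 and -0.28 on the log2 scale. With at least 10 counts in every library of 1 group that share was 56.6% in GRKO, and in Paneth cells it moved from 52.9 to 39.3% with that filter. Deviations from the group means were correlated between the fractions. The correlation was 0.349, 0.229 and 0.238 for WT numbers 1 to 3 and 0.0129, 0.262 and 0.465 for GRKO. All were positive, but that of GRKO number 1 lay below the limit of 0.1 set for pairing. The main fit therefore did not pair equal numbers. Both WT libraries of number 2 carried Xist, and whether equal numbers share a mouse was not tested.

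Without length, the group mean of Hmx2 stood above that of Hmx3 in WT Paneth cells. In library 2 of that group, however, Hmx3 was higher, at 4.95 against 4.58 CPM. Hmx2 also stood above Gfi1b without length in GRKO Paneth cells. Depth limits Gfi1b and Hmx3 in WT non-Paneth cells, where 3 counts over the group stand for 0.0581 CPM.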
